A study of Mus musculus with 11 samples.

Results

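The genes described are 10 members of the matrix remodelling system of the mouse lung: the matrix metalloproteinases Mmp2, Mmp14, Mmp3, Mmp8, Mmp9, Mmp12 and Mmp19, and the tissue inhibitors of metalloproteinases Timp1, Timp2 and Timp3. They were taken by symbol from 23255 measured genes, and all 10 passed the filter on low values (a mean of at least 1 over the 11 libraries), as did 16225 genes in all. RNA came from lungs of C57BL/6 mice in 5 libraries from mice given osimertinib after naphthalene, 3 from mice given naphthalene and 3 from untreated controls. Both treated groups had therefore received naphthalene, an agent toxic to airway club cells, while osimertinib, an inhibitor of the EGF receptor, was given to the first group alone. The series title sets this work in the pneumonitis that osimertinib can cause, and names naive CD4+ T cells. Dose, route, time, age, sex and batch are not given in the labels used here, nor is whether a library is 1 animal or a pool, and the extracted material is called cells in one field and lung in another. P-values therefore measure the spread between these libraries, which may be technical.

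Matrix metalloproteinases are zinc enzymes that cut collagens, elastin and other matrix proteins, and most are made as inactive proenzymes. Mmp2 (gelatinase A), made mainly by fibroblasts and other stromal cells, is activated at the cell surface by the membrane-anchored Mmp14, with Timp2 holding the proenzyme in place. Mmp8 and Mmp9 are stored in neutrophil granules, Mmp12 is the elastase of macrophages, and the 4 TIMPs block the active enzymes.

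Library depth was 5045361 to 13009975 reads over all genes, and values are given in the deposited unit, CPM of a library size scaled by TMM. The surfactant gene Sftpc of alveolar type 2 cells lay between 6977 and 17256 in osimertinib libraries, 6402 and 11037 in naphthalene libraries and 5940 and 6922 in controls, and the club cell gene Scgb1a1 between 1737 and 7664, 3965 and 8387, and 10078 and 12579 in the same groups, so defining lung markers were present in every library. A single unnamed gene, ENSMUSG00000119584, took 43.9 to 60.3% of the reads in naphthalene 1, 2 and 3 and osimertinib 2, and at most 0.0337% in the other 7 libraries. In those 4 libraries 2018541 to 2965328 reads were left for all other genes, so low values rest on few reads there. As every naphthalene library and no control had this share, differences between these groups cannot be told apart from differences that go with it. Of the osimertinib libraries only osimertinib 2 had it, so the same holds in large part between osimertinib and naphthalene. On the first principal component (38.4% of the variance) osimertinib 3 lay far from the rest, at −72.7, with naphthalene 3 next at −26.2.

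The members were chosen by symbol with results of these data known: they were selected on the adjusted p of Mmp2, the 1 gene past the threshold between osimertinib and control (0.00616% of the 16225 genes tested), with further enzymes and inhibitors of its family beside it. Its values and those of the other members are therefore given as a description, with the log2 difference of log2(value + 1) and its standard error (SE) from limma over all 11 libraries, and nothing is inferred from the number of members called. "Past the threshold" means an adjusted p (Benjamini-Hochberg over all genes tested) under 0.05.

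Mmp2 was at 79.1, 67.2, 82.7, 67.3 and 77.7 in osimertinib 1 to 5, against 51.1, 54.2 and 39.9 in naphthalene 1 to 3 and 35.5, 35.6 and 35.2 in control 1 to 3. No group overlapped another, in the order osimertinib, naphthalene, control. The means were 74.8 ± 7.11 (SD, n = 5) in osimertinib lungs, 48.4 ± 7.51 (SD, n = 3) in naphthalene lungs and 35.4 ± 0.243 (SD, n = 3) in control lungs. Osimertinib lungs thus held 2.11 times the control mean, a log2 difference of 1.05 (SE 0.11), which rose past the threshold with limma (adjusted p = 0.0113), with edgeR's quasi-likelihood test on the recovered reads (adjusted p = 0.00593) and with DESeq2 (adjusted p = 7.39e-18). These methods used the same libraries and Mmp2 was selected on this comparison, so the calls are not independent support. Against naphthalene lungs, osimertinib lungs held 1.54 times the mean, log2 0.62 (SE 0.11). That difference did not pass with limma (adjusted p = 0.169), where it ranked 8 of 16225 genes by p, nor with edgeR (adjusted p = 0.424), and it passed with DESeq2 (adjusted p = 0.0179). The naphthalene mean was 1.37 times that of control, log2 0.43 (SE 0.13). In bulk RNA more cells that make a transcript and more transcript per cell cannot be told apart, here and for every gene that follows.

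The size of the Mmp2 difference between osimertinib and control hardly moved with the libraries used, while its call did. Without osimertinib 1, osimertinib 5, control 1, control 2 or control 3 the log2 difference was 1.03, 1.04, 1.05, 1.06 and 1.05, and the limma adjusted p was 0.0642, 0.0617, 0.134, 0.145 and 0.157. The 3 controls lay closer together than counting reads alone would place them: their SD was 0.243, where 526 to 625 reads per library give a counting SD of 1.49, a ratio of 0.16. That ratio was 2.49 in osimertinib lungs and 1.74 in naphthalene lungs. Osimertinib 2, in which ENSMUSG00000119584 also took a large share, held 67.2, above the highest naphthalene value of 54.2, and the 4 osimertinib libraries without it held 67.3 to 82.7, above the control range of 35.2 to 35.6.

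**Figure D1:**
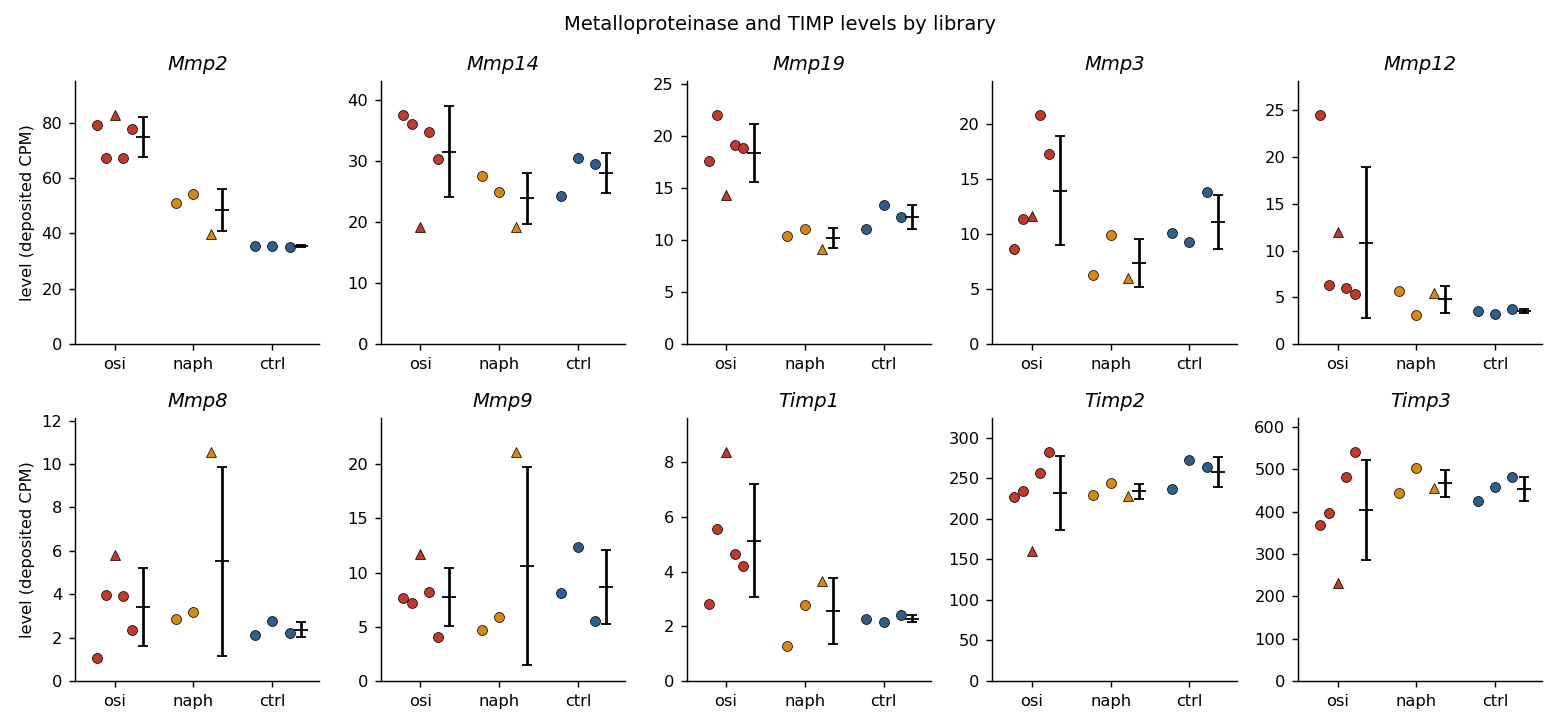
Level of each gene in every library, in deposited CPM on linear axes from 0, with osimertinib (osi, n = 5) left of naphthalene (naph, n = 3) and control (ctrl, n = 3); black marks are the mean ± SD and triangles are osimertinib 3 and naphthalene 3. For Mmp2 the osimertinib values (67.2 to 82.7) lie above the naphthalene (39.9 to 54.2) and control (35.2 to 35.6) values, while for Timp2 and Timp3 the lowest point is osimertinib 3.

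Mmp14 is the membrane-anchored activator of proMmp2. It was at 37.5, 36.0, 19.2, 34.8 and 30.4 in osimertinib 1 to 5, against 27.5, 24.9 and 19.3 in naphthalene 1 to 3 and 24.3, 30.4 and 29.5 in control 1 to 3. Osimertinib 3 had the lowest Mmp14 value of all libraries and the highest Mmp2 value. The group means were 31.6 ± 7.42 (SD, n = 5) for osimertinib, 23.9 ± 4.19 (SD, n = 3) for naphthalene and 28.1 ± 3.29 (SD, n = 3) for control, and all 3 ranges overlapped. The log2 difference was 0.37 (SE 0.20) against naphthalene and 0.13 (SE 0.20) against control, and neither passed the threshold with limma, edgeR or DESeq2. Without osimertinib 3, the other 4 osimertinib libraries (30.4 to 37.5) lay above every naphthalene library, and these differences were 0.53 and 0.30 (limma adjusted p = 0.134 and 0.884).

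Mmp19, a secreted enzyme that cuts basement membrane proteins, was at 17.6, 21.97, 14.3, 19.1 and 18.8 in osimertinib 1 to 5, against 10.4, 11.1 and 9.18 in naphthalene 1 to 3 and 11.02, 13.4 and 12.2 in control 1 to 3. Every osimertinib library lay above every library of both other groups, the nearest being 14.3 in osimertinib 3 and 13.4 in control 2. The log2 difference was 0.78 (SE 0.14) against naphthalene and 0.54 (SE 0.14) against control, and neither passed the threshold with limma (adjusted p = 0.169 and 0.53), edgeR or DESeq2. The limma adjusted p against naphthalene was 0.0481 without osimertinib 3, and the one against control 0.0152 with array weights. Naphthalene libraries held only 20 to 33 Mmp19 reads each. Reads of Tmem198b, which overlaps Mmp19 on the opposite strand in the GENCODE annotation, were measured separately at 4.55 to 7.68; the library kit keeps strand, but how strand was used in counting is not given in the sources used here.

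Mmp3 (stromelysin 1), which cuts many matrix proteins and can activate other proMMPs, ranged from 8.63 to 20.8 in osimertinib, 5.97 to 9.89 in naphthalene and 9.30 to 13.8 in control lungs. These ranges overlap. Its mean in osimertinib lungs was 1.88 times that of naphthalene lungs, log2 0.80 (SE 0.26), and 1.26 times that of control lungs, log2 0.26 (SE 0.26). With the replicate number as a block these differences were 0.48 and −0.06, so the one against control turned in sign. Osimertinib 4 and osimertinib 5 have no same-numbered library in the other groups, so the block takes them out of these differences. They held the highest Mmp3 values of all libraries.

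Mmp12, the macrophage elastase, was at 24.4, 6.35, 12.03, 6.05 and 5.40 in osimertinib 1 to 5, against 5.68, 3.16 and 5.51 in naphthalene 1 to 3 and 3.58, 3.27 and 3.74 in control 1 to 3. Osimertinib 1 was the highest library and osimertinib 3 the next, and the other osimertinib libraries still lay above all controls. The osimertinib SD of 8.04 around a mean of 10.9 was 7.75 times the counting SD. Against control the log2 difference was 1.17 (SE 0.39), and against naphthalene 0.85 (SE 0.39). Without osimertinib 1 the difference against control was 0.84.

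In osimertinib libraries the summed level of 12 markers of monocyte-derived macrophages, all in the file and all kept, was 361 to 470, against 280 to 309.7 in naphthalene and 279 to 334 in control libraries, so it was higher in the same group as Mmp12. Of these 12 markers 5 lay above all naphthalene libraries in every osimertinib library, beside 3.82% of all genes, and 5 above all controls, beside 2.91%. With limma 0 passed in any of the 3 comparisons, and with DESeq2 2 did against control, beside 0.559% of all genes in either direction. The lipid-handling macrophage gene Gpnmb was highest in osimertinib 1 (34.0), as Mmp12 was, against 7.26 to 10.1 in naphthalene and 8.19 to 10.03 in control libraries. Spp1 was also highest there, at 57.6, beside 57.4 in osimertinib 2. Other markers of the list went otherwise: C1qa, C1qb, C1qc, Apoe and Fcrls were each lower in osimertinib 1 than in every other osimertinib library. Osimertinib 3 had the highest marker sum and the second highest Mmp12. The summed level of 10 alveolar macrophage markers, all kept, was 593 to 1147 in osimertinib libraries. It was 433 to 723 in naphthalene and 455 to 499 in control libraries. Of these 10 markers 3 lay above all controls in every osimertinib library, beside 2.91% of all genes. Above all naphthalene libraries 0 did so, beside 3.82%. With limma, edgeR or DESeq2 0 of the 10 passed. The part of these cells in the Mmp12 values was not tested.

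Mmp8, the neutrophil collagenase, was at 1.07, 3.97, 5.79, 3.92 and 2.33 in osimertinib 1 to 5, against 2.84, 3.16 and 10.6 in naphthalene 1 to 3 and 2.10, 2.75 and 2.21 in control 1 to 3. Mmp9 (gelatinase B) was at 7.63, 7.15, 11.7, 8.18 and 4.06 in osimertinib 1 to 5, against 4.74, 5.93 and 21.1 in naphthalene 1 to 3 and 8.13, 12.3 and 5.55 in control 1 to 3. Naphthalene 3 was the highest library for both genes. Without it the log2 difference between naphthalene and control was 0.26 for Mmp8 and −0.55 for Mmp9, against 0.77 (SE 0.46) and 0.05 (SE 0.47) with it.

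The summed level of 12 neutrophil markers, of which 10 are in the file and 7 were kept, was 672 in osimertinib 3 and 489 in naphthalene 3, against 114 to 232 in the other 9 libraries. The calprotectin genes S100a8 and S100a9 stood at 131 and 182 in osimertinib 3 and at 129 and 146 in naphthalene 3, against 4.75 to 17.2 for S100a8 and 5.93 to 25.3 for S100a9 elsewhere. Csf3r (49.8 in osimertinib 3 and 70.7 in naphthalene 3, at most 19.9 elsewhere), Retnlg (24.4 and 22.9, at most 8.97) and Cxcr2 (9.53 and 19.3, at most 6.98) were likewise highest in these 2 libraries. Other markers of the list went otherwise: the granule gene Ltf was lowest in these 2 libraries (5.70 in osimertinib 3 and 4.59 in naphthalene 3, against 15.1 to 52.6 elsewhere), and Lcn2, at 268 in osimertinib 3, was at 94.1 in naphthalene 3, below 122 and 124 in naphthalene 1 and 2. Ly6g and Camp, also neutrophil genes, were at 0 in 5 and 4 libraries and never above 0.459, the value of 1 read in naphthalene 3. Thus Mmp8 was highest in the same 2 libraries as the calprotectin genes, while Mmp9 was also high in control 2, where S100a8 was 14.1. The part of neutrophils in these values was not tested.

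**Figure D2:**
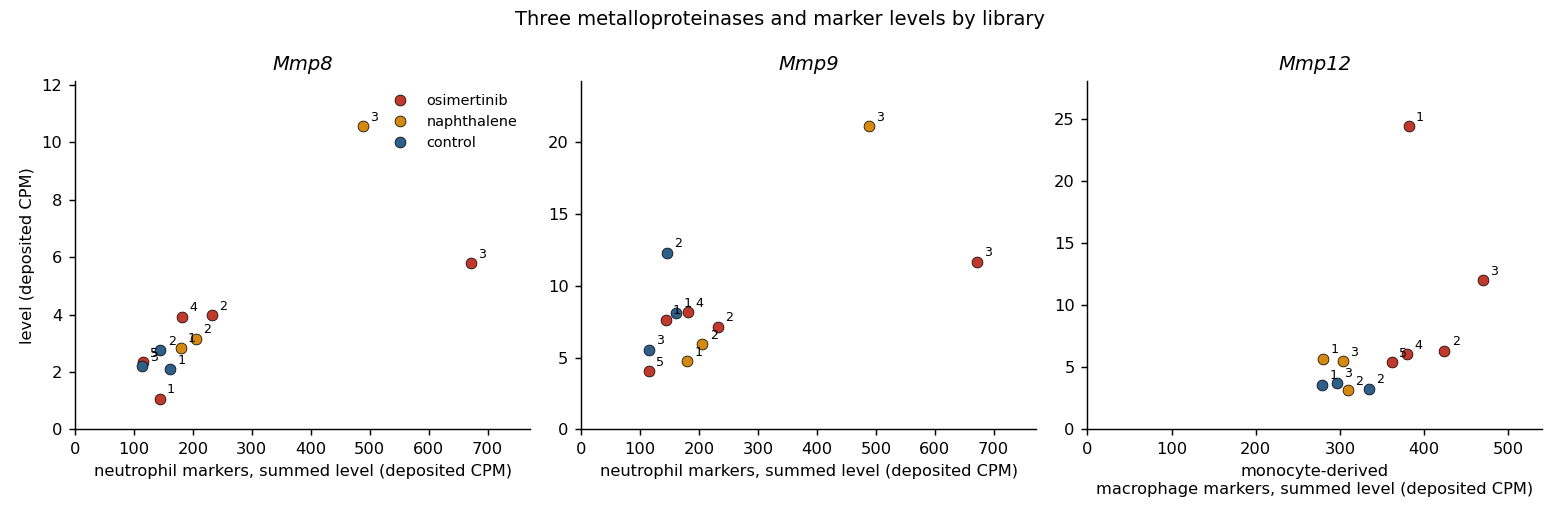
Levels of Mmp8, Mmp9 and Mmp12 (vertical, deposited CPM) against the summed level of neutrophil markers or of monocyte-derived macrophage markers (horizontal, deposited CPM), 1 point per library, numbered by replicate and coloured by group. Osimertinib 3 and naphthalene 3 lie far right for neutrophil markers (672 and 489), and osimertinib 1 lies highest for Mmp12 (24.4).

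Among the inhibitors, Timp1, the TIMP best known to be induced in injured tissue, was at 2.82, 5.56, 8.38, 4.66 and 4.20 in osimertinib 1 to 5, against 1.26, 2.77 and 3.67 in naphthalene 1 to 3 and 2.27, 2.16 and 2.41 in control 1 to 3. All osimertinib libraries lay above all controls, and 4 of the 5 above all naphthalene libraries. The log2 difference was 0.84 (SE 0.29) against control and 0.78 (SE 0.29) against naphthalene. Naphthalene libraries held 4 to 8 Timp1 reads, so their values are coarse. Timp1 overlaps Syn1 on the opposite strand, and Syn1 was measured separately at 0.916 to 2.37.

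Timp2, which both inhibits MMPs and serves the activation of Mmp2, was at 227, 234, 159.8, 257 and 282 in osimertinib 1 to 5, against 229.5, 244 and 228 in naphthalene 1 to 3 and 237, 273 and 264 in control 1 to 3. Timp3, which binds to the matrix and also inhibits ADAM17, was at 369, 396, 232, 482 and 541 in osimertinib 1 to 5, against 443, 503 and 455 in naphthalene 1 to 3 and 424, 457 and 481 in control 1 to 3. For both genes osimertinib 3 was the lowest library and osimertinib 5 the highest, and the 2 moved together over the 11 libraries (Pearson r 0.93, a description over libraries that share their scaling). The log2 difference from control was −0.18 (SE 0.15) for Timp2 and −0.22 (SE 0.22) for Timp3 in osimertinib lungs, and that from naphthalene −0.04 (SE 0.15) and −0.26 (SE 0.22). With the replicate block, which takes osimertinib 4 and osimertinib 5 out, these were −0.33 and −0.49 from control and −0.20 and −0.53 from naphthalene.

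RefSeq promoters (build GRCm38.p6, 250 bases before to 50 after an annotated start) matched 7 of the 10 members, all but Mmp2, Mmp9 and Mmp19, with 8 starts. Those of Mmp3 and Mmp12 are shown because these starts alone of the 8 held an AP-1 motif (TGAGTCA), and those of Timp2 and Timp3 because these genes moved together. Capitals mark AP-1 motifs, TATA boxes (TATAAA) and Sp1 GC boxes (GGGCGG), each searched on both strands, and none overlaps another in the sequences shown.
Mmp3, chr9:7445572-7445871, plus strand: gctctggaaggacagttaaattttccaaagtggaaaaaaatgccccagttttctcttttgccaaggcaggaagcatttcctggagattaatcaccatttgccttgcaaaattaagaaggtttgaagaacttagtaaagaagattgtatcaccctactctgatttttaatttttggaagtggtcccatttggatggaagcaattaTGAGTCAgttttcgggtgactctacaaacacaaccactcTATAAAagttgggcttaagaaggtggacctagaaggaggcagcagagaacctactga
Mmp12, chr9:7347124-7347423, plus strand: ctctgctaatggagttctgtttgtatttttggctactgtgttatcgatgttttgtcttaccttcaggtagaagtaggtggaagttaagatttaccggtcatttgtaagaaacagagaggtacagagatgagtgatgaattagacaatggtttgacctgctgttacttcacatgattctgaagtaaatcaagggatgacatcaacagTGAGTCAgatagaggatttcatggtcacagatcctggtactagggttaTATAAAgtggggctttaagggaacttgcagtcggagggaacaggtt
Timp2, chr11:118355362-118355661, minus strand: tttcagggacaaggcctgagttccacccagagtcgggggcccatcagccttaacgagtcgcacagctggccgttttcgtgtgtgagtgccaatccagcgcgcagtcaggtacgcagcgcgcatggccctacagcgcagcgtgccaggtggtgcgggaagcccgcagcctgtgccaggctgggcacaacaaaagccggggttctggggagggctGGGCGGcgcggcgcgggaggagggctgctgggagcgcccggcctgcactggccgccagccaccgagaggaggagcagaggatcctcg
Timp3, chr10:86300162-86300461, plus strand: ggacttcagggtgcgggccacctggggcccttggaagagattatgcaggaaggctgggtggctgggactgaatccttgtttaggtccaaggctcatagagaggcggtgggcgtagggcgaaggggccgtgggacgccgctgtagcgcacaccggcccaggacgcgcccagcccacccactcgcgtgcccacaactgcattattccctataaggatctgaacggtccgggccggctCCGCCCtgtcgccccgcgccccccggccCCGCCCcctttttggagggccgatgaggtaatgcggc

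In Mmp3 the AP-1 motif began 46 bases before the annotated start and in Mmp12 44 bases before it, and a TATA box began 7 bases before the start of Mmp3 and 4 bases after that of Mmp12. Mmp8 held a TATA box and no AP-1 motif, and the other annotated Mmp12 start (chr9:7344147-7344446) held none of the 3. Timp3 and Mmp14 each held 2 GC boxes, Timp2 and Timp1 each 1, and these 4 promoters held no TATA box or AP-1 motif. Of 32851 RefSeq promoters of this length 5.20% held the AP-1 motif, 13.6% the TATA box and 35.7% the GC box. The GC content was 40.0% in Mmp3 and 40.7% in Mmp12, against 68.7% in Timp2 and 67.0% in Timp3 and a median of 52.7% over all promoters. These matches are descriptions of strings of bases. A TATA box here is TATAAA at any position on either strand, and need not be a working one. Distances are from annotated starts, whose use in these lungs was not tested. No binding was measured.

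Set against each other as groups of samples, osimertinib and naphthalene lungs differed by 0 genes past the threshold with limma (1671 genes, 10.3%, at an unadjusted p under 0.05), 0 with edgeR and 33 of 14264 genes (0.231%; 0.0911% higher) with DESeq2. Of the 10 members 0 passed with limma and edgeR, and 1, Mmp2, with DESeq2. The groups did not overlap for 2 members, Mmp2 and Mmp19, both higher in osimertinib, beside 3.82% of all genes higher and 2.12% lower (5.94% in either direction). The median log2 difference of the 10 members was 0.49 and that of all genes 0.06.

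Between osimertinib and control lungs limma called 1 gene (4.8% at an unadjusted p under 0.05), edgeR 1 and DESeq2 78 of 13949 (0.559%, with 0.315% higher). Among the members Mmp2, on which they were selected, was the 1 call of each. The groups did not overlap for 4 members, Mmp2, Mmp12, Mmp19 and Timp1, all higher in osimertinib, beside 2.91% of all genes higher and 3.43% lower (6.34% in either direction). The median log2 difference of the members was 0.28 and that of all genes −0.01.

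Between naphthalene and control lungs limma called 0 genes (1211, or 7.46%, at an unadjusted p under 0.05), edgeR 0 and DESeq2 12 of 11121 (0.108%; 0.0719% higher), with 0 members among them. Groups did not overlap for Mmp2 and Mmp8, both higher in naphthalene, beside 4.94% of all genes higher and 11.2% lower (16.2% in either direction). For Mmp8 the nearest values, 2.84 in naphthalene 1 and 2.75 in control 2, lay closer than 1 read in naphthalene 1 (0.316). The members' median was 0.04 and that of all genes −0.06. The 3 comparisons share their libraries in pairs, so they are not independent of each other.

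The scaling of the libraries bears on these directions. With library totals made equal, which counts the reads of ENSMUSG00000119584, the log2 difference of the median gene was 1.12 between osimertinib and naphthalene, −0.35 between osimertinib and control and −1.47 between naphthalene and control. The Mmp2 differences were then 1.79, 0.69 and −1.09, of which the last has turned in sign, and relative to the median gene they were 0.66, 1.04 and 0.38. For Mmp19 they were 1.86, 0.20 and −1.66, or 0.73, 0.55 and −0.18 relative to the median gene.

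**Figure D3:**
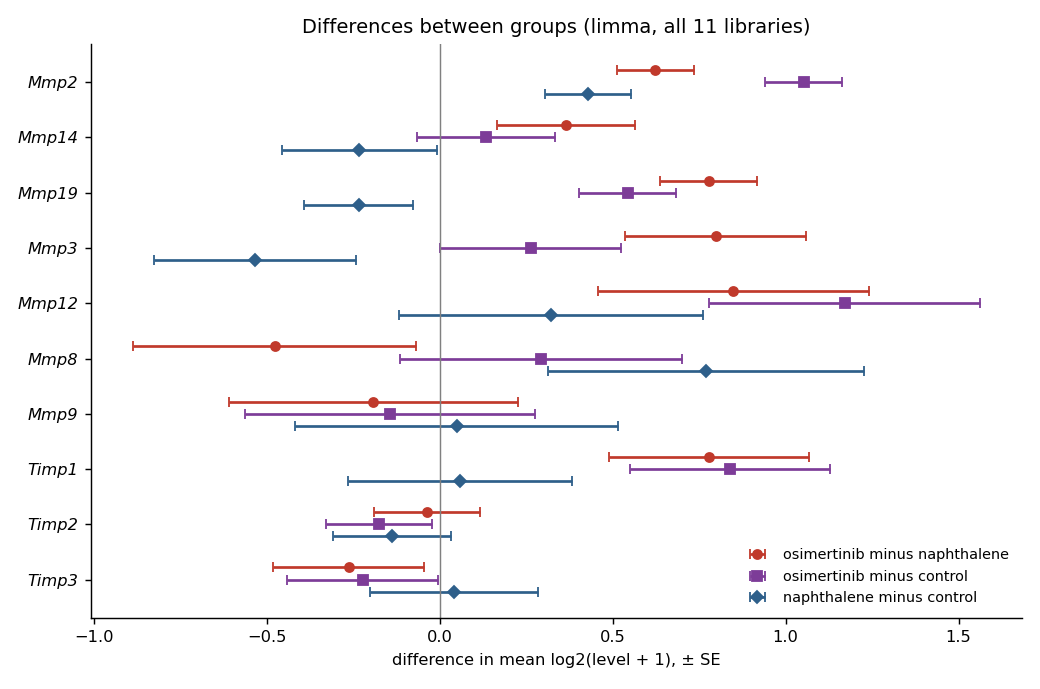
Difference in mean log2(value + 1) between groups for each gene, with its standard error from limma over all 11 libraries (5 osimertinib, 3 naphthalene, 3 control); circles, squares and diamonds are the 3 comparisons. Mmp2 lies farthest from 0 relative to its error against control (1.05, SE 0.11), and Mmp8 and Mmp9 carry the widest errors (0.41 to 0.47).

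Ratios between 2 genes of the same library do not depend on that scaling, apart from the pseudocount of 1, and are given as descriptions. The log2 ratio of Mmp2 to Timp2 was −1.51, −1.78, −0.94, −1.92 and −1.85 in osimertinib 1 to 5, against −2.14, −2.15 and −2.48 in naphthalene 1 to 3 and −2.71, −2.90 and −2.87 in control 1 to 3. The 3 groups did not overlap. Osimertinib 3, with the lowest Timp2, had the highest ratio. The group means differed by 0.66 (osimertinib minus naphthalene) and 1.23 (osimertinib minus control).

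For Mmp2 to its activator Mmp14 the mean log2 ratio was 1.25 ± 0.48 (SD, n = 5) in osimertinib lungs, 0.99 ± 0.11 (SD, n = 3) in naphthalene lungs and 0.33 ± 0.17 (SD, n = 3) in control lungs. Both treated groups lay above all controls (at most 0.53) and overlapped each other. Mmp14 to Timp2 averaged −2.85 ± 0.24 in osimertinib lungs, −3.25 ± 0.24 in naphthalene lungs and −3.16 ± 0.07 in control lungs (SD, n = 5, 3 and 3), with overlap between osimertinib and both other groups. Mmp9 to Timp1 averaged 0.52 ± 0.45 in osimertinib lungs, 1.49 ± 0.69 in naphthalene lungs and 1.499 ± 0.57 in control lungs, and ranges overlapped.

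The ratio of Mmp2 to the fibrillar collagen Col3a1, a matrix substrate list member, stayed within a narrow band. Its mean log2 value was −2.74 ± 0.22 (SD, n = 5) in osimertinib lungs, −2.67 ± 0.02 (SD, n = 3) in naphthalene lungs and −2.85 ± 0.10 (SD, n = 3) in control lungs, and the osimertinib range contained both others. Col1a1 behaved otherwise: Mmp2 to Col1a1 ranged from −2.12 to −0.35 in osimertinib, −2.04 to −1.19 in naphthalene and −2.55 to −1.65 in control lungs.

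**Figure D4:**
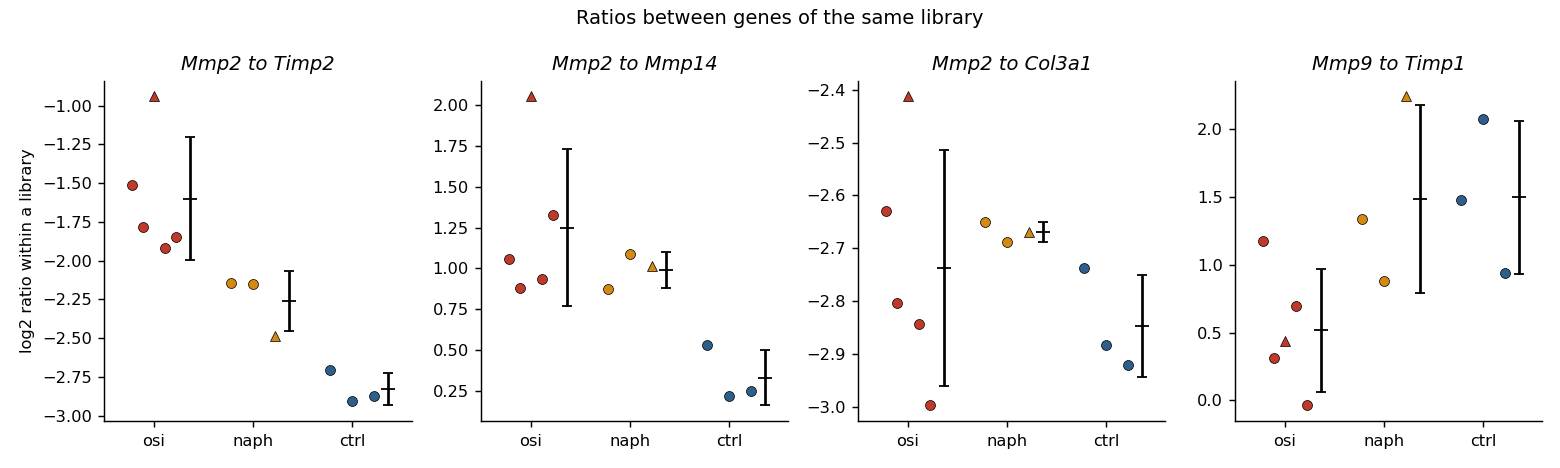
Log2 ratio of 2 genes within each library (vertical; difference of log2(value + 1)) for 4 pairs, osimertinib (n = 5) left of naphthalene (n = 3) and control (n = 3), with mean ± SD in black and triangles for osimertinib 3 and naphthalene 3; the vertical axes do not start at 0. Mmp2 to Timp2 separates the 3 groups, whose means are −1.60, −2.26 and −2.83, and Mmp2 to Col3a1 does not (−2.74, −2.67 and −2.85).

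Among the genes whose log2 levels followed Mmp2 most closely over the 11 libraries, of 11659 named genes with a mean of at least 5, were Col3a1 (Pearson r 0.94), the sodium channel subunit gene Scn3b (0.92), Pfkfb2 of glycolysis control (0.90) and the collagen Col5a2 (0.90). Col3a1 averaged 506 ± 70.3 (SD, n = 5) in osimertinib lungs, 313 ± 48.8 (SD, n = 3) in naphthalene lungs and 261 ± 16.5 (SD, n = 3) in control lungs, and Col5a2 80.0 ± 8.12, 53.6 ± 6.41 and 50.6 ± 4.13 in the same groups. Closest to Mmp14 were Psap (0.93), Med1 (0.90) and Chd3 (0.90), to Timp1 Stat3 (0.95), Hmgn1 (0.94) and Ifit3b (0.94), and to Timp3 Spock2 (0.98), Phactr2 (0.97) and Wwc1 (0.96). These are the highest of 11659 values over libraries that share their groups, and carry no test.

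Per length, as CPM per kilobase of the principal GENCODE transcript, Timp3 and Timp2 stood highest of the 10 members in all 3 groups and Mmp2 came next. The membrane-anchored Mmp15, which is not one of the 10, averaged 23.3 ± 3.97 in osimertinib lungs (SD, n = 5), where its range overlapped that of Mmp2, and 21.2 ± 1.64 in naphthalene and 21.9 ± 1.05 in control lungs (SD, n = 3 each), above Mmp2 without overlap. Timp3 averaged 85.5 ± 25.0, Timp2 62.6 ± 12.4 and Mmp2 24.3 ± 2.31 CPM per kilobase in osimertinib lungs (SD, n = 5), and Timp3 96.2 ± 6.04, Timp2 69.6 ± 5.00 and Mmp2 11.5 ± 0.0789 in control lungs (SD, n = 3). In control lungs the range of Mmp2 overlapped that of Mmp14, at 10.8 ± 1.27, whereas in osimertinib lungs Mmp2 lay above Mmp14, at 12.2 ± 2.86, without overlap. In osimertinib lungs neighbours in the order from Mmp14 down to Mmp8, at 1.41 ± 0.740 CPM per kilobase, overlapped each other.

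Of 16 further matrix metalloproteinases, 11 were matched by symbol and 6 had a mean of at least 1; 0 of these 6 passed with limma, edgeR or DESeq2 in any comparison. All 6 differences were above 0 for osimertinib against naphthalene (median log2 0.27, against 0.06 for all genes) and all 6 below 0 for naphthalene against control (−0.34, against −0.06). Mmp11 (stromelysin 3) was at 20.5 in osimertinib lungs against 15.9 in naphthalene lungs (log2 0.34, SE 0.13), and both groups did not overlap. The same values for Mmp23 were 3.81 against 2.29 (log2 0.54, SE 0.22), and for the leukocyte enzyme Mmp25 1.64 against 0.786 (log2 0.61, SE 0.24). Control lungs held Mmp11 at 20.9, Mmp23 at 4.15 and Mmp25 at 1.35. For osimertinib against control 2 of the 6 differences were above 0 and 4 below (median log2 −0.07, against −0.01 for all genes). The other inhibitors Reck, a membrane-anchored MMP inhibitor, and Timp4 were tested and did not pass: Reck was at 40.8 in osimertinib lungs, against 44.7 in naphthalene and 48.4 in control lungs, and Timp4 at 1.22, against 2.01 and 2.01.

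Proteases that act upstream gave 0 calls by limma, edgeR or DESeq2 among 9 genes tested of 12 of plasminogen activation and proprotein cleavage. The urokinase gene Plau was at 5.74 in osimertinib lungs against 4.32 in naphthalene lungs (log2 0.35, SE 0.17) and its receptor Plaur at 20.3 against 15.6 (0.33, SE 0.20). Control lungs held Plau at 5.29 and Plaur at 16.2. Among 17 ADAM and ADAMTS genes tested of 18, 0 passed with limma and 1 with DESeq2: Adamts2, which trims the ends of procollagens, at 36.3 in osimertinib lungs, against 25.7 in naphthalene and 22.7 in control lungs (adjusted p = 0.014 by DESeq2 and 0.347 by limma against control). Every osimertinib value of Adamts2 (32.6 to 41.7) lay above every value of the other groups. The leukocyte sheddase Adam8 was at 17.1, against 11.2 in naphthalene and 11.1 in control lungs, with overlap.

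Among 12 matrix substrates 0 passed with limma or edgeR in any comparison, and with DESeq2 2 were higher in osimertinib than in naphthalene lungs, Col3a1 (adjusted p = 0.0183) and elastin (Eln, 0.0481), and 1 higher than in control, Col3a1 (adjusted p = 4.01e-07; 0.111 by limma, where it ranked 2 by p). Eln was at 229 in osimertinib lungs, against 107 in naphthalene and 127 in control lungs. Of the 3 clearance genes 0 passed with limma, edgeR or DESeq2: the collagen receptor Mrc2 was at 72.9 in osimertinib lungs, against 68.5 in naphthalene and 84.3 in control lungs, Lrp1, which takes up MMP and TIMP complexes, at 532, against 523 and 547, and Thbs2 at 2.62, against 3.34 and 2.40.

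Fibroblast markers were looked at beside Mmp2. The summed level of 12 markers was 1954 to 2450 in osimertinib lungs, against 1812 to 2569 in naphthalene and 1911 to 2128 in control lungs, ranges that overlap, and 0 of the 12 passed with limma, edgeR or DESeq2. Inmt alone made up 1169 of the 2569 in naphthalene 3. Of the 12, Dpt lay above naphthalene in every osimertinib library (66.2 against 48.0), beside 3.82% of all genes. Against control 0 did so, beside 2.91%. From naphthalene 9 of the 12 differences were above 0 (median log2 0.15, against 0.06 for all genes). The largest was that of Tcf21, at 45.7 against 28.5 (log2 0.60, SE 0.22), with overlap, and 35.3 in control lungs. Sums of 7 smooth muscle markers (112 to 163 in osimertinib, 117 to 177 in naphthalene and 137 to 253 in control lungs) overlapped too. All 7 differences were below 0 for osimertinib against control (median log2 −0.41, against −0.01 for all genes). The same held for naphthalene against control (−0.51, against −0.06). For osimertinib against naphthalene 5 were above 0 and 2 below, and 0 of the 7 passed with limma or DESeq2 in any comparison. The part of fibroblast number in the Mmp2 values was not tested.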

How the data were processed

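Total RNA was depleted of ribosomal RNA and made into directional libraries, per the labels' protocols. The deposited file holds a normalised signal per Ensembl gene; build GRCm39, Trimmomatic 0.38, Bowtie2, RSEM 1.3.0 and edgeR are named, without roles, per the submitters' processing notes. Within 0.01, 100% of values divided evenly by the least value above 0 of their library, which recovers reads, and the scale equalled CPM with TMM factors (largest difference 8.88e-16). One read was worth 0.0568 to 0.459.

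Symbols came from GENCODE M21 (GRCm38), which named 23123 of 23255 IDs; transcript lengths and overlaps came from it too. Genes with a mean of at least 1 (16225) were tested as log2(value + 1), which understates the change of low genes, with limma 3.58.1 (R 4.3.3), a variance trend, 3 groups in 1 fit and Benjamini-Hochberg adjustment. edgeR 4.0.16 and DESeq2 1.42.0 were run on the recovered reads. The procedure was tested on simulated data.

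Members, lists and tests were chosen with earlier results of these data known. All members were named. Of each list, genes past the threshold or the 3 largest differences were named. Others (Gpnmb, Spp1, C1qa, C1qb, C1qc, Apoe, Fcrls, S100a8, S100a9, Csf3r, Retnlg, Cxcr2, Ly6g, Camp, Dpt, Inmt, Sftpc, Scgb1a1, Tmem198b, Syn1) were chosen after their values were seen. Some genes that these rules pick are not reported here. No library was a duplicate: the smallest chi-square per degree of freedom within a group was 3.44. The deviations of same-numbered osimertinib and naphthalene libraries correlated at 0.122, 0.159 and 0.523. Osimertinib 1 correlated better with naphthalene 2 (0.137), and osimertinib 2 with naphthalene 1 (0.193). The values thus do not settle whether libraries pair by number.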

Additional observations from a re-analysis of the deposited data

How the results depend on the processing

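Of the values of the 10 genes in 3 comparisons, 684 of 684 moved by less than 1 SD of the gene between replicates under settings other than equal totals, and 25 of 30 moved by more with equal totals. Leaving out 1 library can hardly move a group mean by that much, so the first count says little of stability. Mmp12 between osimertinib and control, for example, ran from 0.77 to 1.65 within it. Mmp2 between osimertinib and control was positive in all 23 other settings (log2 0.98 to 1.10). Its limma adjusted p was 0.0687 without a variance trend, 0.135 with the replicate number as a block and 0.607 with equal totals. The cause was not tested. Osimertinib 4 and osimertinib 5 share their number with no other library, so the block takes them out of every difference that uses the osimertinib group. Between osimertinib and control the deviations of same-numbered libraries correlated at −0.04, 0.07 and −0.15, which does not settle whether they pair. With the replicate block 0 genes passed there, and the block changed no count in the other comparisons; Mmp2 between osimertinib and naphthalene was then 0.65 (adjusted p = 0.295).

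In the order osimertinib against naphthalene, osimertinib against control and naphthalene against control, the genes past the threshold numbered 0, 1 and 0. They were 14278, 88 and 15512 with equal totals, where the median gene moves; 4, 149 and 5 with array weights; 47, 2 and 38 without osimertinib 2 and 3; and 33, 78 and 12 with DESeq2. With only the groups compared 1 gene passed in the first and 21 in the last, and without a variance trend 0 in the second. Leaving out 1 library gave 0 to 11, 0 to 2 and 0 to 12, with 11 and 12 without osimertinib 2. Mmp19 also passed against naphthalene without osimertinib 2 and 3 together (adjusted p = 0.0295). Differences changed sign in 1 to 3 of the 23 settings for Mmp8, Mmp9 and Timp2 between osimertinib and naphthalene, for Mmp3, Mmp8, Mmp9 and Timp3 between osimertinib and control, and for Mmp9, Timp1 and Timp3 between naphthalene and control. All ratio differences kept within 1 SD with a smaller pseudocount or with 1 library left out. Leaving out 1 library cannot move a group mean by that much, so only the pseudocount setting could have failed. Depth limits Timp1, Mmp8 and Mmp12 in naphthalene libraries (4 to 8, 8 to 23 and 8 to 18 reads).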
